A study of Mus musculus with 6 samples.

Results

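The type I interferon effectors examined here were 10 mouse genes, those of the OAS and IFIT families with 3 related antiviral genes: Oas1a, Oas1g, Oasl1, Oasl2, Ifit1, Ifit2, Ifit3, Isg15, Isg20 and Usp18. They were chosen by gene name, with earlier results of these data known, as were the gene lists set beside them. Counts of passing genes are thus descriptions, and the share over all probes is a scale and not a test. A gene was kept when a probe with its symbol in the platform annotation had a value on at least 4 of 6 arrays. This left 8 of the 10 genes, on 9 probes, out of 9774 genes measured to the same standard. No probe is annotated as Oas1a, and the Isg15 probe had a value on 3 arrays alone. The tested lungs came from 6 C57 mice sensitized and challenged with ovalbumin (OVA), a common model of allergic airway disease. Each lung was hybridised on a 2-colour array together with 1 shared pool made from control C57 lungs, with amplified RNA in both channels. The labels give no age, dose, time after challenge, treatment of the controls or number of mice in the pool, and name whole lungs. The question of the comparison was which transcripts differ between OVA lungs and control lungs.

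Interferons of type I bind a receptor on almost all cells and switch on a set of antiviral genes. OAS enzymes sense double-stranded RNA and make short 2'-5'-linked adenylate chains, which activate RNase L, a nuclease that degrades RNA. IFIT proteins bind foreign or incompletely capped RNA and hold back its translation. Isg15 is a small ubiquitin-like protein that is attached to other proteins, Usp18 takes it off again and also dampens the interferon receptor, and Isg20 is an exonuclease of single-stranded RNA. The same genes respond in part to interferon-gamma.

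The values are log ratios of the 2 channels, with positive and negative signs as the authors deposited them. The labels do not say which channel was divided by which, so neither sign was assigned to the OVA mice. The mouse is named first in each title, but genes known for a strong rise in allergic airways, such as the mucus regulator Clca1, were negative (mean log2 ratio -3.06). Differences are therefore given as folds apart, with no direction. The base of the logarithm is not stated either and was taken as 2. With a natural logarithm the largest effector fold over all 6 mice, that of Oas1g, would be 15.3 in place of 6.61. A ratio gives no level, so the tissue could not be checked against the level of lung markers, though the surfactant gene Sftpc and the airway secretory gene Scgb1a1 gave values on all 6 arrays.

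The arrays measured between 10922 and 13132 probes each. Mouse 3 stood apart: the SD of its log2 ratios over probes was 0.21, against 0.32 to 0.47 in the other mice, and 14 of its probes lay at -1 or below, against 135 to 368. Its value is given with each effector, and the effector's mean fold is repeated without it. Control sequences placed repeatedly on the array had a median SD between 0.0911 and 0.136 within an array. The pool is a single control sample, so all p-values leave out the spread between control mice.

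All 8 effectors had a negative mean, and all 8 passed the test (limma against 0, Benjamini-Hochberg adjusted p between 0.00324 and 0.0244). Over all tested probes, 24.4% passed with either sign and 12.3% with a negative sign. The median of the 8 means was -0.97 on the log2 scale, beside -0.003 for all tested probes. Oas1g, Oasl1, Ifit2 and Isg20 were also at least 2-fold apart from the pool, as were 1.07% of all tested probes on the negative side. Without mouse 3 all 8 passed again, beside 26.1% of probes with either sign and 13.2% with a negative sign. Their median was then -1.07, and the same 4 genes were at least 2-fold apart, beside 1.53% of probes. Of the 6 effectors with 6 values, Oas1g (at -0.005 in mouse 3), Ifit3 and Isg20 were negative in every mouse, as were 14.3% of all probes with 6 values. The count depended on other mice. Without mouse 4, 3 effectors passed (Oas1g, Ifit3 and Isg20), beside 11.4% of all probes. Without mouse 2, 4 passed (these and Ifit2), beside 11.8%. Without mouse 6, 5 passed (these and Ifit1), beside 14.7%. Without mouse 1 the call of Usp18 on its first probe was lost, beside 20.3% of all probes that passed, and without mouse 5 none, beside 17.6%. The second Usp18 probe, which is not in these counts, passed without any 1 mouse. In whole lung, a change in the number of cells of a type and a change in RNA per cell cannot be told apart.

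**Figure D1:**
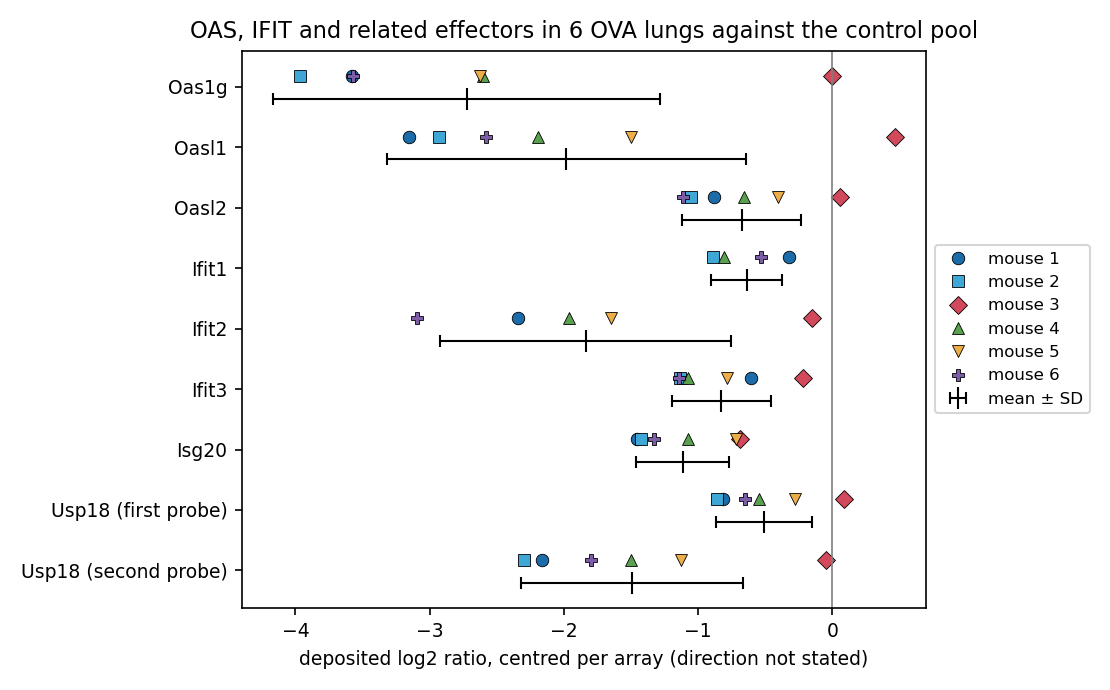
Log2 ratio of each effector probe (rows) in each OVA lung against the control pool, 1 symbol per mouse, with the mean and SD over arrays as a bar beneath. Mouse 3 lies nearest to 0, or on the positive side, in every row where it has a value. The other mice are negative throughout.

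Oas1g, an oligoadenylate synthetase on chromosome 5, was the effector farthest from the pool. Its log2 ratio was -3.58 in mouse 1, -3.97 in mouse 2, -0.005 in mouse 3, -2.60 in mouse 4, -2.63 in mouse 5 and -3.57 in mouse 6. In 5 mice it was therefore below -2.5, and in mouse 3 it equalled the pool. The mean was -2.73 ± 1.44 (SD, n = 6), 6.61-fold apart (limma, adjusted p = 0.01), at rank 6 from the lowest of 11629 tested probes. Without mouse 3 it was -3.27 ± 0.62 and 9.64-fold apart (adjusted p = 0.000681, limma on 5 mice).

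Oas1g has a close copy, Oas1a, as its direct neighbour in the genome, and the probe sequences were not used here, so RNA of Oas1a that binds the Oas1g probe cannot be told apart from Oas1g. The likeness of both genes is visible at their start sites. The longest run of bases that their promoter windows share is shown because it holds letters of the element through which interferon is known to act on such genes. It starts 56 bases before the start of Oas1g and 58 before that of Oas1a, and is 73 bases long. Capitals mark overlapping matches to the core of the interferon-stimulated response element, which reads GAAA, any 2 bases and GAAA again:

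Oas1g and Oas1a, shared run: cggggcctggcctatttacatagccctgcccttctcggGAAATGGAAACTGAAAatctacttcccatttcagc

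Oasl1 and Oasl2 are adjacent genes of OAS-like proteins that carry ubiquitin-like domains. In the mouse Oasl2 keeps the synthetase activity, and Oasl1 lacks it and restrains the translation of the interferon regulator Irf7. Oasl1 was at -3.16 in mouse 1, -2.93 in mouse 2, 0.47 in mouse 3, -2.19 in mouse 4, -1.50 in mouse 5 and -2.58 in mouse 6. Mouse 3 was thus on the opposite side, above 98.2% of the values of tested probes on its array, counting ties by their mean rank. The mean was -1.98 ± 1.34 (SD, n = 6), 3.95-fold apart (limma, adjusted p = 0.0199), and 5.55-fold apart without mouse 3.

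Oasl2 was likewise negative in every mouse except mouse 3, at a smaller size. It was at -0.885, -1.05, 0.057, -0.655, -0.403 and -1.12 in mice 1 to 6, with a mean of -0.68 ± 0.45, or 1.60-fold apart (adjusted p = 0.0196 in limma), and 1.77-fold apart without mouse 3. Within arrays Oasl1 was below Oasl2 in 5 of 6 mice, with a difference of -1.31 ± 0.93 on the log2 scale (Oasl1 minus Oasl2). This difference did not pass an exact two-sided sign-flip permutation test (p = 0.0625, adjusted p = 0.167 over 4 pairs of relatives, smallest p possible 0.0312), with mouse 3 as the exception. Without that mouse the difference was -1.65, in 5 of 5 mice.

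The Ifit genes form a cluster on chromosome 19. Ifit2, an RNA-binding antiviral protein that also promotes cell death, was at -2.34 in mouse 1, -0.154 in mouse 3, -1.96 in mouse 4, -1.65 in mouse 5 and -3.09 in mouse 6, and had no value in mouse 2. It was the effector with the lowest value in mouse 6 after Oas1g. Its mean was -1.84 ± 1.09 (SD, n = 5), 3.58-fold apart (limma, adjusted p = 0.0194), and 4.79-fold apart over the 4 mice left without mouse 3.

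Ifit3, which in human cells binds Ifit1 and strengthens its hold on RNA, was at -0.61, -1.13, -0.22, -1.08, -0.783 and -1.14 in mice 1 to 6. All 6 mice were on the same side, mouse 3 included, and the mean was -0.83 ± 0.37 or 1.77-fold apart (limma, adjusted p = 0.00675). Without mouse 3 it was 1.93-fold apart. Ifit3b, a near copy of Ifit3 in the same cluster, has no probe of its own in the annotation, and its RNA on the Ifit3 probe cannot be told apart.

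Ifit1, which binds RNA that lacks the host's cap methylation, had values in 4 mice. They were -0.325 in mouse 1, -0.893 in mouse 2, -0.811 in mouse 4 and -0.53 in mouse 6, with a mean of -0.64 ± 0.26 (SD, n = 4), 1.56-fold apart (limma, adjusted p = 0.0141). Mouse 3 gave no value, so this mean does not include the array that stood apart. From the lowest mean the family ran Ifit2, Ifit3, Ifit1. Ifit2 was below Ifit3 in 4 of 5 mice, with a mean difference of -1.07 (Ifit2 minus Ifit3), and Ifit1 was above Ifit3 in 4 of 4, by 0.35. Neither difference passed the exact two-sided permutation test (p = 0.125 for both, adjusted p = 0.167). The smallest p possible was 0.0625 with 5 mice and 0.125 with 4. Ifit1 and Ifit2 shared 3 arrays, where Ifit1 was higher in each and by 1.91 on average (exact permutation p = 0.25, the smallest possible).

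Isg20, the exonuclease, was on the same side in every mouse. It was at -1.45, -1.43, -0.687, -1.07, -0.721 and -1.33 in mice 1 to 6. In mouse 3 its value was within the lowest 0.77% of the tested probes on that array, and the next effector there, Ifit3, was at 12.3%. The mean was -1.11 ± 0.35 (SD, n = 6), 2.17-fold apart (limma, adjusted p = 0.00324), and without mouse 3 it was 2.30-fold apart.

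Usp18, the Isg15-removing protease, had 2 probes that differed in size. The first was at -0.816, -0.859, 0.083, -0.543, -0.28 and -0.654 in mice 1 to 6, with a mean of -0.51 ± 0.36 (1.43-fold apart, limma adjusted p = 0.0244). The second was at -2.16, -2.30, -0.047, -1.50, -1.13 and -1.80, with a mean of -1.49 ± 0.83 (2.81-fold apart, adjusted p = 0.0112). The second was the lower of the 2 in 6 of 6 mice, with a difference of -0.98 ± 0.47 (second minus first), a comparison made after the values were seen. Without mouse 3 the first was 1.55-fold and the second 3.43-fold apart. Both probes placed the mice in the same order, from mouse 2 as the lowest through mice 1, 6, 4 and 5 to mouse 3. The count of effectors uses the first probe, since the rule took the lower probe number between equals.

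Isg15, the ubiquitin-like modifier, did not meet the rule. It was at -1.59 in mouse 1, -0.783 in mouse 2 and -0.893 in mouse 6, and had no value elsewhere. With probes measured on 3 arrays admitted, its mean was -1.09 ± 0.44 (n = 3), 2.13-fold apart (limma, adjusted p = 0.0205).

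The effectors are set beside genes of the allergic response, mouse by mouse. The median of the effectors was -1.17, -1.13, -0.005, -1.07, -0.783 and -1.23 in mice 1 to 6, over the 7 or 8 effectors with a value. Mouse 6 was thus as far from the pool as mice 1 and 2. The list of allergic response genes, among them Clca1, the mucin Muc5ac, the anion exchanger Slc26a4 and the secreted protein Retnla, had medians of -3.11, -3.42, 0.168, -3.53, -0.64 and -1.36. Of the 11 genes in this list 9 were tested and 6 passed, all negative, beside 12.3% of all tested probes with a negative sign. The 9 means lay between -3.06 and -0.10. The list was split in mouse 5, where Clca1 was at -3.96, Retnla at -3.35 and Muc5ac at -3.09, Arg1 at -0.286, and the median is the value of Agr2. These medians are descriptions of 6 arrays, and no test was made of the difference. In mice 1, 2, 4, 5 and 6 every effector value was negative. On each of these arrays 5 to 7 of the effectors lay in the lowest 5% of all tested probes, against 1 in mouse 3.

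**Figure D2:**
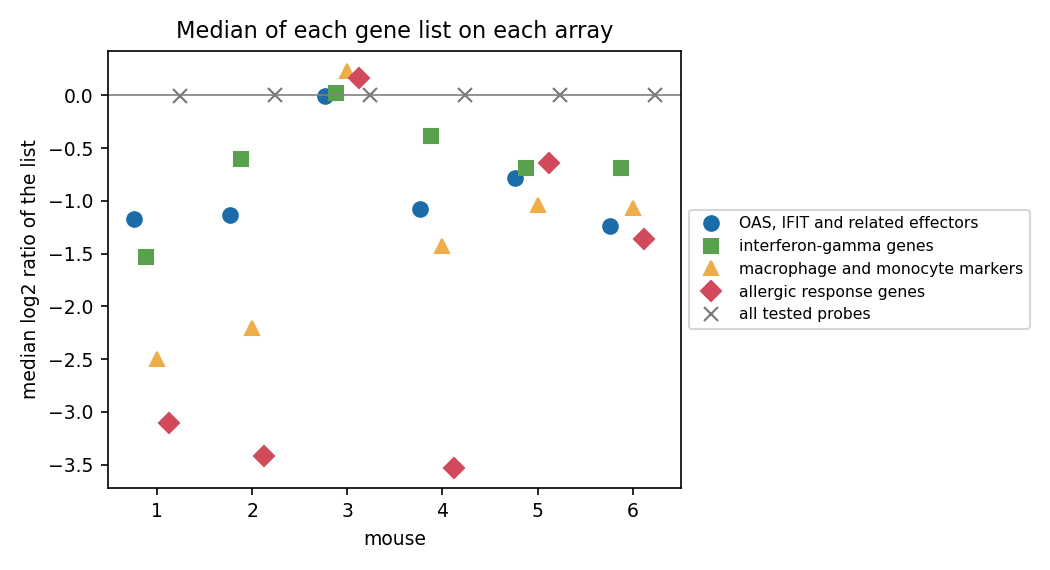
Median log2 ratio (vertical axis) of 4 gene lists and of all tested probes on the array of each mouse (horizontal axis). The effectors lie between -1.23 and -0.783 in 5 mice and at -0.005 in mouse 3. The median of -0.64 of the allergic response genes in mouse 5 is the value of 1 gene in a split list.

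Relatives and partners of the effectors were examined next. Of 11 further OAS and IFIT genes 4 could be tested, and 1 passed: Oas3, another oligoadenylate synthetase, at -0.94 ± 0.39 (n = 5, limma adjusted p = 0.00821). This share is near the 24.4% of all tested probes that passed. Oas1b, Oas1c and Oas1h had means of -0.20, -0.005 and 0.049 and did not pass. In the conjugation pathway of Isg15 and the regulation of RNase L, 4 of 5 tested genes passed, all negative. They were the ligase Herc6 at -0.81, the conjugating enzyme Ube2l6 at -0.67, the activating enzyme Uba7 at -0.46 and the ligase Trim25 at -0.40, while Abce1, an inhibitor of RNase L, was at -0.018. The call of Trim25 was lost without mouse 1, 2, 4 or 6, and that of Uba7 without mouse 1, 2, 5 or 6.

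Upstream of the effectors, ligands and receptors are given before sensing and signalling. Of 24 interferon and receptor genes 5 could be tested, and none passed limma after adjustment, beside 24.4% of all tested probes. An unadjusted p under 0.05 in limma was found for 3 of them (Ifna4, Ifnar1 and Il10rb). The receptor chains Ifnar1 and Ifnar2 were at -0.24 and -0.096 and the common chain Il10rb at 0.26. Ifnar1 was at 0.30 in mouse 3 and passed without that mouse, at -0.34 (limma, adjusted p = 0.00333). Of the interferons themselves, Ifna4 and Ifna11 had means of 0.16 and -0.022, and Ifnb1 had a value on 2 arrays alone. Among genes of RNA and DNA sensing and of signalling, 6 of 13 tested genes passed with a negative sign, beside 12.3% of all tested probes. With a positive sign 1 passed, the adaptor Mavs at 0.21, beside 12.0% of all tested probes. Mavs did not pass without mouse 3 (limma, adjusted p = 0.0582), and Sting1 passed only with all 6 mice or without mouse 3. The negative ones were led by Dhx58, a regulator of RNA sensing related to RIG-I, at -1.45 ± 0.79, the nucleic acid sensor Zbp1 at -1.34 ± 0.72 and the DNA-sensing adaptor Sting1 at -0.91 ± 0.71 (n = 6 each). The double-stranded RNA sensors Ifih1 and Tlr3 were at 0.16 and 0.032 and did not pass. Irf9, a DNA-binding interferon regulatory factor, was at -0.86 ± 0.45 (limma, adjusted p = 0.00993).

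Of 24 other tested effectors of type I interferon 14 passed, all negative, and the list median was -0.50. Ifi204 of the DNA-sensing Ifi200 family was at -2.16 ± 1.02, Cmpk2, a nucleotide kinase, at -1.44 ± 0.81, Rtp4 at -1.39 ± 0.71 and Ifitm3, which blocks entry of viruses, at -1.06 ± 0.67 (n = 6 each). Mx1 and Mx2, GTPases that block viruses, had means of -0.12 and -0.30 and did not pass. Of 18 tested genes tied to interferon-gamma, 9 passed with a negative and 1 with a positive sign, and the list median was -0.54. The chemokine Cxcl9 was at -2.24 ± 1.26, the GTPase Gbp3 at -1.57 ± 0.86 and the GTPases Irgm1 and Tgtp1 at -1.43 and -1.39. The positive gene was Ifng itself, at 0.23 ± 0.11 (n = 6, limma adjusted p = 0.0163; positive in 6 of 6 mice). Across these 6 lists 36 of 69 tested genes passed, 34 of them negative. Over all tested probes, 24.4% passed with either sign, 12.3% with a negative and 12.0% with a positive sign. Without mouse 3 the positive share was 12.9%. With a mouse left out, the pathway count is given beside the share of all probes with either sign. It was 41 without mouse 3 (26.1%), 26 without mouse 1 (20.3%) and 26 without mouse 5 (17.6%). It was 21 without mouse 6 (14.7%), 20 without mouse 4 (11.4%) and 19 without mouse 2 (11.8%).

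**Figure D3:**
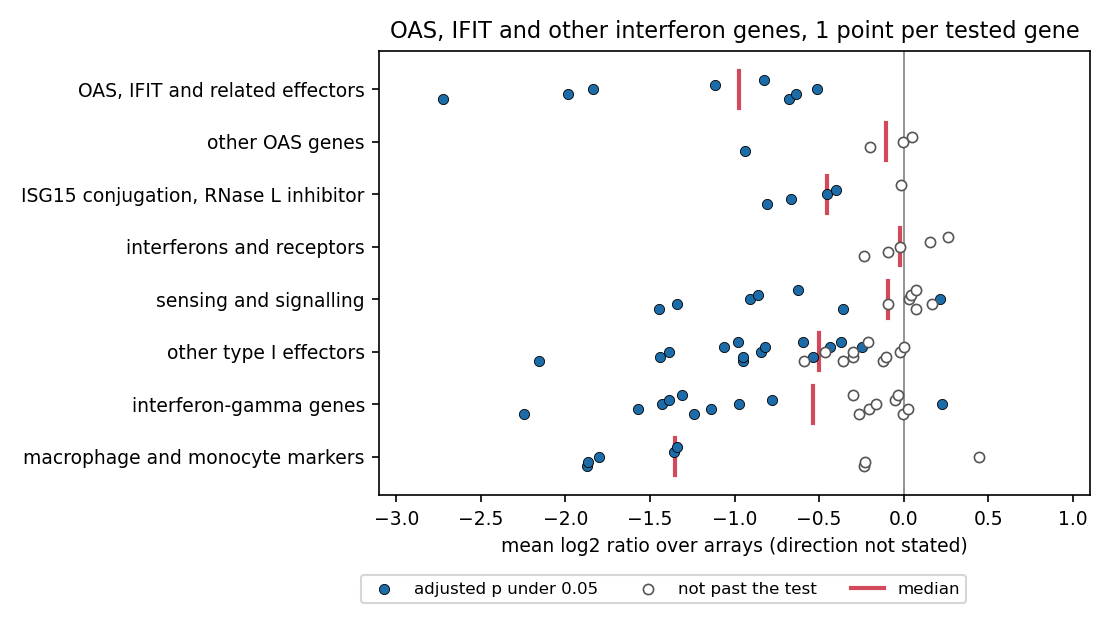
Mean log2 ratio (horizontal axis) of each tested gene in the effectors and in 7 other lists (rows), filled where the adjusted p was under 0.05, with the list median as a red bar. The 8 effectors lie between -2.73 and -0.51, and the interferons and receptors between -0.24 and 0.26.

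Markers of immune cells and of other tissue are given beside the effectors. Of 15 macrophage and monocyte markers 8 were tested and 5 passed, all negative, led by the Fc receptor Fcgr1 at -1.87, the monocyte gene Plac8 at -1.87, Aif1 at -1.80 and the complement chain C1qa at -1.36. The calls of Aif1 and C1qa were lost without any 1 of mice 1, 2, 4, 5 and 6. The list median was -1.35, between -2.49 in mouse 1 and 0.234 in mouse 3. Cd68 and the mannose receptor Mrc1, at -0.23 each, and Marco at 0.44 did not pass. Of 11 tested neutrophil markers 3 passed, all negative, namely Cd177 at -1.15, Mmp8 at -0.41 and Mpo at -0.15, a share near the 24.4% of all probes. Mpo did not pass without mouse 2, 3, 4 or 6, and Cd177 passed only with all mice or without mouse 3. Plasmacytoid dendritic cells are a main source of type I interferon, and 1 of 8 tested markers passed with a negative sign, Ccr9 at -0.31, and 2 with a positive sign, Cox6a2 at 0.35 and Pacsin1 at 0.19. The median of the 8 means was -0.051. The call of Cox6a2 was lost without mouse 2, 4 or 6, and that of Pacsin1 without mouse 1, 2, 4, 5 or 6. Ccr9 kept its call. Which cells of the whole lung gave the Cox6a2 RNA was not tested. Siglech has no annotated probe, and the list shares Irf8 with the interferon-gamma list. Of 14 T and NK cell markers 8 were tested and 1 passed, Cd247 at 0.43, a share below the 24.4% of all probes. The 8 means lay between -0.35 and 0.43, with a median of -0.019. Of 2 tested eosinophil markers none passed in limma, also at an unadjusted p under 0.05, with Prg2 at -0.056 and Siglecf at 0.011. The part of these cells in the effectors' ratios was not tested. Genes of heart muscle and fat lay on the positive side. Of 9 tested heart muscle genes 7 passed, led by Myl4 at 1.60, Nppb at 1.45, Myh6 at 1.44 and Actc1 at 1.20, and of 5 adipocyte genes 3, Adipoq at 2.30, Cidea at 2.25 and Ucp1 at 1.32. Among lung epithelial genes 2 passed on each side, Scgb1a1 at 1.38 and Sftpc at 0.60 against Sftpa1 at -0.61 and Sftpd at -0.23. Without mouse 3 the split was 5 positive and 1 negative of 8 tested, and Sftpd no longer passed (limma, adjusted p = 0.0692).

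Genes that flank the effectors in the genome are given beside them. Beside Oas1g at -2.73, the adjacent Oas1h had a mean of 0.049 ± 0.096 and Oas1c, 3 genes away, -0.005 ± 0.060 (n = 6 each). Both are paralogs of Oas1g. A ratio gives no level, so whether either paralog is expressed in these lungs cannot be told. Beside Ifit2 lies the lysosomal lipase Lipa, at -0.13 ± 0.078 (limma, adjusted p = 0.0528), and 1 gene further Ch25h, an interferon-inducible cholesterol hydroxylase, at -0.83 ± 0.42 (limma, adjusted p = 0.00938). Sppl3, 3 genes from Oasl1, was at 0.088 ± 0.213. Among 22 tested protein-coding genes within 4 positions of an effector or its cluster, 3 passed with a negative and 1 with a positive sign. Over all tested probes 24.4% passed with either sign and 12.3% with a negative sign. The median of the 22 means was 0.00083. The passing genes besides Ch25h were Rph3a, 2 genes from Oas1a, and Bid and Tuba8 near Usp18. Their means were -0.37, -0.30 and 0.28 (limma, adjusted p = 0.015, 0.021 and 0.013). The comparison with flanking genes was added after values had been seen, and no test of it was made.

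**Figure D4:**
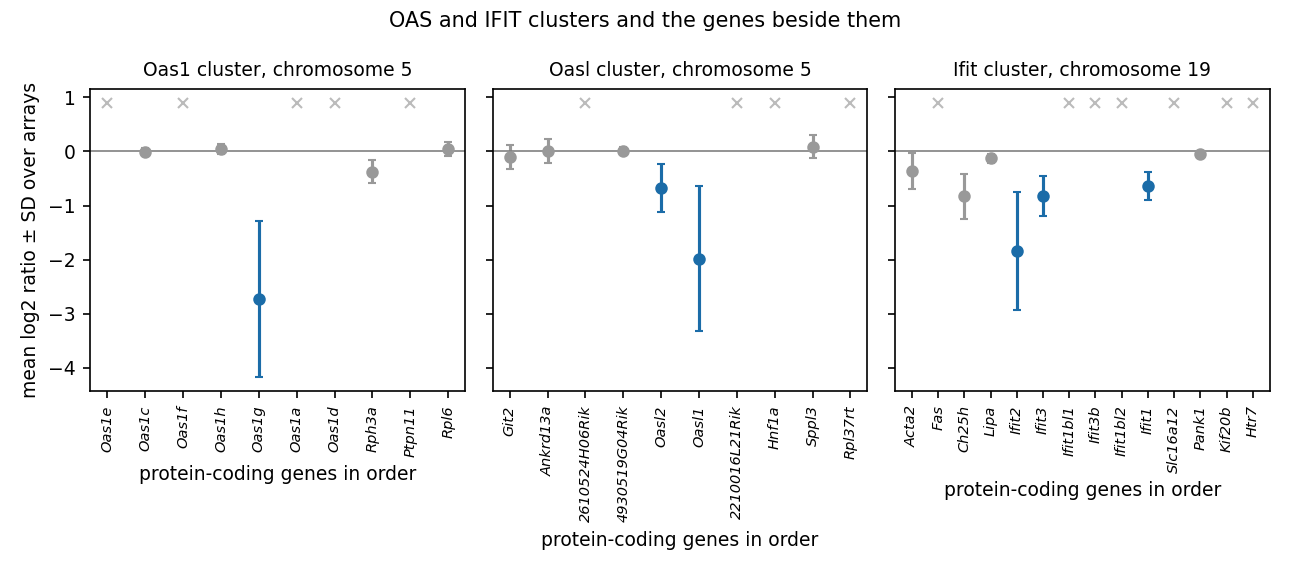
Mean log2 ratio with SD over arrays (vertical axis) of the protein-coding genes of 3 clusters in their order along the chromosome (horizontal axis), with the effectors in blue and other genes in grey. Crosses mark genes without a tested probe, and Ch25h at -0.83 is the flanking gene with the lowest mean.

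The genes most like the effectors by their values were found from the 6 effectors measured on all arrays. Their mean was -1.75, -1.90, -0.051, -1.36, -1.05 and -1.73 in mice 1 to 6. Among 7809 named probes measured on all arrays, the smallest root mean square difference from these 6 values was that of Rtp4, a chaperone of membrane receptors that interferon induces, with 0.129 on the log2 scale. Kif22, a mitotic kinesin, followed with 0.147, Ms4a7, a macrophage membrane protein, with 0.156 and Serpina3n, a protease inhibitor, with 0.196. Tgtp1, an interferon-induced GTPase, was at 0.213 and Nuf2, a kinetochore protein, at 0.239. The likeness is a description over 6 arrays and covers both the size and the order of the values.

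Promoters of the effectors were searched because the genes share an inducer. RefSeq windows of 300 bases, from 250 before to 50 after a start site in GRCm38.p6, were held for 9 of the 10 genes, some with several starts. The core of the response element (GAAA, any 2 bases, GAAA, on either strand) was present in 5 of these 9 genes, Oas1g, Oas1a, Ifit1, Ifit3 and Isg15, against 3.99% of 27025 genes with such windows. Matches may overlap, as those of Oas1g and Oas1a do. The gamma-activated element, TTCNNNGAA, reads the same on both strands. It was present in 3 of the 9 genes, Oas1a, Isg20 and Ifit2, and in 9.55% of all. The first base of the matches lay 18 and 12 bases before the start of Oas1g, 104 and 85 before that of Ifit1 and 156 and 122 before that of Ifit3, with those of both Ifit genes on the opposite strand. A match is a stretch of letters and not a shown binding site, and its absence says only that these letters are not in this window. Oasl1 and Ifit2, with mean log2 ratios of -1.98 and -1.84, had no match to this core, and Ifit1, at -0.64, had 2. The promoters of the effector with the largest ratio, of both Ifit genes with matches and of Oasl1 as the large ratio without one are shown, read along the strand of the gene with the matches in capitals:

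Oas1g, chr5:120887564-120887863, minus strand: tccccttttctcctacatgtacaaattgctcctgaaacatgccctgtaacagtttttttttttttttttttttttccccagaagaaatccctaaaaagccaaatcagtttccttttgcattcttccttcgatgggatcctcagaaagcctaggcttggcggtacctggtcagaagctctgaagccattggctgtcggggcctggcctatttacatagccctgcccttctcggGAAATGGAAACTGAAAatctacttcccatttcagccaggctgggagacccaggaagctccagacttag

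Ifit1, chr19:34640639-34640938, plus strand: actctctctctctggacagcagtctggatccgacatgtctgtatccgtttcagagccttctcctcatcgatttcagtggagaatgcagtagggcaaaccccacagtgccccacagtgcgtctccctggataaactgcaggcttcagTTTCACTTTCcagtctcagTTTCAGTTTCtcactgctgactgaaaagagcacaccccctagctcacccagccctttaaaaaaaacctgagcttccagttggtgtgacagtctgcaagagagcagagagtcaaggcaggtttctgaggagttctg

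Ifit3, chr19:34583279-34583578, plus strand: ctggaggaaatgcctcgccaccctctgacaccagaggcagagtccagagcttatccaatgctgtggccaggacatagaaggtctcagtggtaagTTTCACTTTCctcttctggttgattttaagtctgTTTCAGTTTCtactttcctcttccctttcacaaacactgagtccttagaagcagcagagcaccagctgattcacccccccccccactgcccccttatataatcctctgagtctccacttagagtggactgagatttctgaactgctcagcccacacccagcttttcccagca

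Oasl1, chr5:114922990-114923289, plus strand: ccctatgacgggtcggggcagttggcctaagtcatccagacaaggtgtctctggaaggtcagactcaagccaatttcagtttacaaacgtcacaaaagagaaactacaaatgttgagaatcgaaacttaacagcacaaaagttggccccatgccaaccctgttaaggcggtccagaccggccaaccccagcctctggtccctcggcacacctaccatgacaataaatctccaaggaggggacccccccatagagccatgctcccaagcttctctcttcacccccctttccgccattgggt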

How the data were processed

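Lung RNA of 6 OVA mice was compared with 1 control pool on 2-colour arrays. The authors deposited 1 log ratio per probe, read here as log2; of its base, dyes, direction, background correction and filters nothing is stated in the labels or headers. The table has 17280 probes. The platform annotation gives 1 symbol for 14722, several for 1 and none for 2557. Of the 14722, 14445 were matched to current symbols through RefSeq (GRCm38.p6, for names and promoters) and 277 were kept as given. Each array was centred on its median over probes measured on all arrays. The 170 repeated and 4 plant control rows were left out. The 11629 probes with at least 4 values were fitted with limma 3.58.1 in R 4.3.3 (intercept alone, eBayes, two-sided, Benjamini-Hochberg at 0.05). The fit was tested on simulated data with known constant shifts and independent noise for each probe. The simulation held no array like that of mouse 3. A gene was represented by its probe with most values, or the lowest number. The effectors and gene lists were chosen with earlier results of these data known. Genes named were all effectors, per list up to 4 passing genes with the largest means or 2 as values, and the 6 nearest in profile. Oas1b, Oas1c, Oas1h, Abce1, Ifna4, Ifna11, Ifnar2, Ifnb1, Ifih1, Tlr3, Mavs, Mx1, Mx2, Ifng, Cd68, Mrc1, Marco, Irf8, Arg1, Agr2, Lipa, Ch25h, Sppl3, Rph3a, Bid and Tuba8 were added after their values were seen. Alternatives were other centring, scaling, filters, weights and variances, gene means, omission of probes 6, 18 or 24 numbers from a stronger one that is at least 2-fold apart, and leaving out each mouse. Figures were drawn with matplotlib 3.10.9.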

Additional observations from a re-analysis of the deposited data

Results flagged for a closer look

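In 6 of 60 sets of values checked, mouse 3 lay far from the other mice, with a gap to the nearest mouse above Dixon's critical value for 6 values. For 1 set of independent values chance gives about 1 in 20. The sets here share the same 6 arrays, and some genes were named for their values. This rate is therefore no scale for the count of 6. Of the effectors 1 was among the 6 flagged sets. Oas1g was at -0.005 in mouse 3, with -2.60 as the nearest other value. The others were Gbp3 at 0.112 (nearest -1.48), Ifi204 at -0.231 (nearest -1.98), Plac8 at 0.256 (nearest -1.79), Clca1 at 0.842 (nearest -3.11) and Ifnar1 at 0.298 (nearest -0.24). No other mouse stood out in these 60 sets.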

How the results depend on the processing

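The means of the 9 effector probes kept their sign in all 142 recomputed values and their side of the threshold in 123, and the other 19 no longer passed. For the other named genes 688 of 807 values kept their side, 112 no longer passed, 5 turned sign and 2 newly passed. Of 47 such genes that passed, 21 lost the call without at least 1 mouse, namely Clca1, Muc5ac, Retnla, Ifitm3, Irgm1, Sting1, Uba7, Trim25, Aif1, C1qa, Cd177, Mpo, Cd247, Cox6a2, Pacsin1, Sftpc, Sftpa1, Sftpd, Actc1, Myh6 and Myl4. No alternative moved the count of 8 passing effectors among other centring, scaling, quantile normalization, weights, robust variances, gene means and omission of probes beside a stronger one; with values required on all 6 arrays, 6 of 6 passed. With unmoderated variances 3 effectors (Oas1g, Ifit3 and Isg20), 10 interferon pathway genes and 1444 probes passed. An exact sign-flip test gave an unadjusted p under 0.05 for 3 effectors; with fewer than 6 values it cannot go below 0.0625. Leaving out each mouse gave 3 to 8 effectors, 19 to 41 pathway genes and 1325 to 3036 probes. The cause of these drops was not tested. The near-zero mean log2 ratio of Siglecf turned negative with quantile normalization (-0.0238), scaled arrays (-0.00931) and without some mice (-0.0383 to 0.0813). The mean log2 ratio of Ifnar1 passed without mouse 3 and with array weights (-0.28, limma adjusted p = 0.0407). No paired analysis was possible because all arrays belong to 1 group against 1 pool. The number of arrays limits the precision.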
